A study of Mus musculus with 4 samples.

Results

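The strongest acetylated promoters of the mouse left ventricle were taken as the genes whose promoter carried a mean raw count of 1000 reads or more in chromatin immunoprecipitated with an antibody against acetylated histone H3. For each gene the RefSeq transcript with the highest mean over the 4 libraries was used. This gave 92 promoters out of 23631 genes, or 0.389% of them. The counts of the 4 libraries themselves chose these promoters, so their levels and ranks are a description and carry no test. Of the 92 genes, 80 were protein coding, 9 were long non-coding RNAs, 1 was a microRNA and 2 were transcribed pseudogenes.

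Every library came from the left ventricle, and all mice were C57BL6 males of 10 to 12 weeks. The TAC TSA mice had transverse aortic constriction (TAC), an operation that narrows the aorta so that the ventricle pumps against a higher pressure, and were given trichostatin A (TSA) in DMSO. The TAC Veh mice had the same constriction and were given the solvent DMSO alone (Veh). The Sham TSA mice had a control operation and TSA, and the Sham Veh mice had the control operation and DMSO. All were injected under the skin 2 times a day for 4 weeks, TSA being given at 0.6 mg per kg per day. Each group was represented by 1 library, so none of the ratios below has a replicate, and how many animals went into a library is not stated in the sources used here. The labels of both sham libraries cite an earlier deposit and those of the TAC libraries do not. An effect of surgery and any difference that goes with the deposit therefore cannot be told apart.

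Acetyl groups on the tails of histone H3 loosen chromatin and are bound by bromodomain proteins, and promoters of transcribed genes carry them around the start site. Histone deacetylases remove these groups, and TSA inhibits such enzymes. In the heart, contractile genes give much of the messenger RNA of the cardiomyocyte, whereas genes that respond quickly to hormones, stretch or stress are known for promoters kept open before any stimulus. A promoter count from whole ventricle adds up the signal of all its cells, so fewer cells of a type and less acetylation per cell cannot be told apart.

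Sequences of 6 of these promoters are given first, because they belong to the gene classes that recur among the 92: a nuclear RNA (Malat1), an immediate early transcription factor (Jun), a kinase phosphatase (Dusp1), a thioredoxin inhibitor (Txnip), a clock repressor (Nr1d1) and a vascular receptor (Nrp1). Each line gives the 250 bases before the RefSeq start site of the GRCm38.p6 assembly, 5′ to 3′ on the gene's own strand. Capitals mark matches to 8 motifs searched on both strands, namely TATAAA (the TATA box), CCAAT (the CCAAT box), GGGCGG (the GC box), CACGTG (an E-box), TGACGTCA (the cyclic AMP response element), CCGGAAGT (bound by ETS factors), GCGCATGCG (bound by NRF1) and CTATTTTTA (bound by MEF2 factors).
Malat1 (chr19:5802673-5802922, minus strand): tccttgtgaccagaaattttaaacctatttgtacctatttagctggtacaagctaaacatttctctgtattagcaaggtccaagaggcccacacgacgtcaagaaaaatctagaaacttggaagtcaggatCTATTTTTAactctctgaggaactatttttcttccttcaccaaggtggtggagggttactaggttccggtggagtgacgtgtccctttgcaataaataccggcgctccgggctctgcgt
Jun (chr4:95052223-95052472, minus strand): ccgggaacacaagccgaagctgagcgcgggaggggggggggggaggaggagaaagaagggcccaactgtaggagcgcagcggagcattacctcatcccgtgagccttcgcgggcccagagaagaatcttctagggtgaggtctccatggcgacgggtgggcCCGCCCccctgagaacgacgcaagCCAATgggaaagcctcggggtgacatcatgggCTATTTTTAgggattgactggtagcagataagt
Dusp1 (chr17:26508473-26508722, minus strand): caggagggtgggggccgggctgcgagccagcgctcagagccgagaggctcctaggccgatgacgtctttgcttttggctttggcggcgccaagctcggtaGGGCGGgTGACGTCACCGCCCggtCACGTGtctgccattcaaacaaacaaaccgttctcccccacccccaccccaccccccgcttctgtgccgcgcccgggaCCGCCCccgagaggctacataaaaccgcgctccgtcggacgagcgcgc
Txnip (chr3:96557707-96557956, plus strand): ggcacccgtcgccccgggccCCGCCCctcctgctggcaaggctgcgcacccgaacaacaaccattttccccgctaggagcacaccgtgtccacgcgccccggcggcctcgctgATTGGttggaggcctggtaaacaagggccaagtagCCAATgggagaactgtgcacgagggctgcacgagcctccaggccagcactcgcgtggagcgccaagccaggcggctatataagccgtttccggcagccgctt
Nr1d1 (chr11:98775378-98775627, minus strand): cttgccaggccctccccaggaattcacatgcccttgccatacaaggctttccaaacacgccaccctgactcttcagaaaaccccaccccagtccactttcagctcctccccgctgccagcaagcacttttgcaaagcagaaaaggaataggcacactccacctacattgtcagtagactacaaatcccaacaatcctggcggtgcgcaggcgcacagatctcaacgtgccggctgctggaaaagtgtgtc
Nrp1 (chr8:128358823-128359072, plus strand): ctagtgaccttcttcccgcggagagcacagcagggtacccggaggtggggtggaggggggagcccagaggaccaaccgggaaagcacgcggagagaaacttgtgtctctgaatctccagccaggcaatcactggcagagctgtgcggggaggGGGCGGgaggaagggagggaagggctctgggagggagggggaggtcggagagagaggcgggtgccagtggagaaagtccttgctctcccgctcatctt

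CTATTTTTA, letters of the kind that the MEF2 family of muscle transcription factors binds, lay 119 bases before the Malat1 start and 33 bases before the Jun start, and was found in 0.454% of the 32851 RefSeq promoter windows of the same length. TGACGTCA, the palindrome bound by cyclic AMP responsive factors, lay 143 bases before the Dusp1 start and was found in 1.55% of windows. In Dusp1 it overlapped no base of CACGTG, an E-box 126 bases before the start that was found in 6.02% of windows, but its last bases abutted the reverse GGGCGG 135 bases before the start. CCAAT stood 65 bases before the start of Jun and, on either strand, 102 and 137 bases before that of Txnip, against 33.8% of all windows with at least 1 match. GGGCGG, the GC box, was found in 32.7% of all windows and lay 98 bases before the Nrp1 start. No match of the 8 was found in the Nr1d1 window, which says only that these letters are absent from those 250 bases. A comparison of base composition between the 92 promoters and other genes was void, since only 73 of the 92 (79.3%) had a RefSeq promoter sequence, under the 80% set for such a check.

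Over all promoters, with 1 transcript per gene, the libraries held 4895710 reads in TAC TSA, 6341854 in TAC Veh, 7067361 in Sham TSA and 6864998 in Sham Veh. Promoters of 1461 olfactory and vomeronasal receptors, genes of the sensory epithelia, served as background and took 0.680% of these reads in TAC TSA, 0.507% in TAC Veh, 0.428% in Sham TSA and 0.422% in Sham Veh. The 92 strongest promoters took 1.67% in TAC TSA (exact binomial 95% interval 1.66 to 1.68), 1.64% in TAC Veh (1.63 to 1.65), 1.68% in Sham TSA (1.67 to 1.69) and 1.69% in Sham Veh (1.68 to 1.70). Their share was thus nearly even, while the background share was highest in TAC TSA. The mean count of the 92 was 39.1 times that of a receptor promoter in TAC TSA, 51.4 times in TAC Veh, 62.4 times in Sham TSA and 63.6 times in Sham Veh. These intervals, and all others below, cover counting error only. Reads in windows that neighbouring genes share were counted once for each gene. The totals and shares are therefore of summed window counts, and the binomial intervals treat repeated reads as independent.

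Hjurp, whose product loads the centromeric histone variant onto chromatin, had the highest mean count of the named genes, with 1239 reads in TAC TSA, 1686 in TAC Veh, 1788 in Sham TSA and 1773 in Sham Veh. A second RefSeq transcript, matched to no gene name here, had counts within 5% of these in every library and a slightly higher mean, 1623 against 1621.5. Neat1, the RNA that builds nuclear paraspeckles, followed with 1277 reads in TAC TSA, 1503 in TAC Veh, 1854 in Sham TSA and 1810 in Sham Veh. Both promoters were lowest in TAC TSA, the shallowest library, which raw counts alone do not correct for. Kmt2e, which encodes a chromatin protein of the SET domain family, had 1203, 1529, 1707 and 1703 reads in the same order of libraries, and the neighbouring long non-coding RNA 5031425E22Rik had nearly the same counts. Hjurp, Neat1, Kmt2e and 5031425E22Rik ranked within the first 10 promoters of every library, and no other gene did. Jun, a subunit of the AP-1 transcription factor, ranked 6th by mean count with 1130 reads in TAC TSA, 1357 in TAC Veh, 1467 in Sham TSA and 1597 in Sham Veh.

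**Figure D1:**
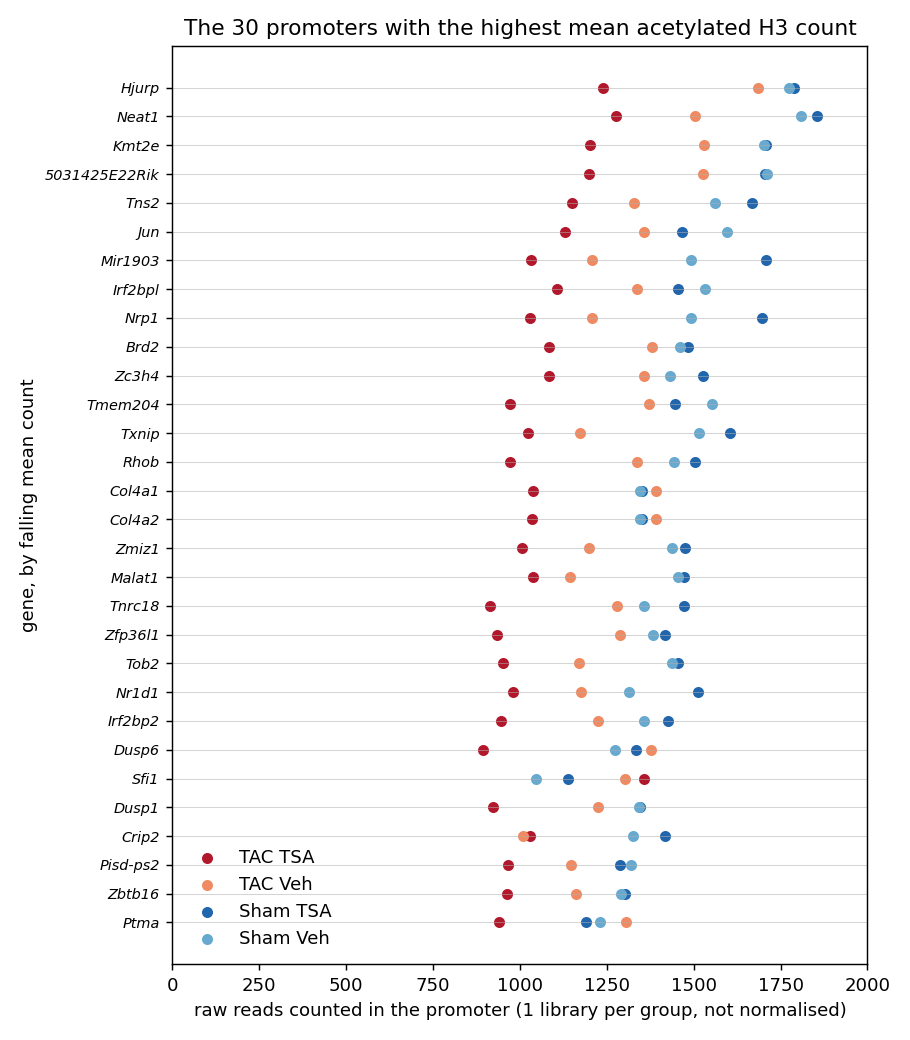
Raw reads in the promoter (horizontal axis) of the 30 genes with the highest mean count (vertical axis, strongest at the top), 1 point per library, not corrected for depth. TAC TSA is the lowest of the 4 points for all but Sfi1 and Crip2, and for Sfi1 it is the highest with 1358 reads.

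The threshold cut through a dense stretch of promoters. Just inside it stood Pfkfb2 with a mean of 1006.75 reads, Amotl2 with 1006, Hspg2 and Dedd2 with 1003.25 each, and Actg1 with 1002.25. Cdc42ep1 (994.75), Ptp4a3 (993), Sorbs3 (991) and Ptbp1 (990.75) stood just outside. Another 3960 genes had means from 500 to under 1000 reads, and the median over the 22835 genes with a mean of at least 10 reads was 228.25. The length of the promoter window is not given in the sources used here, so counts of different genes are reads per window and not per base.

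The 92 genes came from fewer promoters than their number says. Neighbouring genes whose start sites lie close together can share reads. Of the 92, 21 sat in 10 loci defined by counts within 5% in all 4 libraries and gene positions within 5000 bases. The distance between start sites was not part of this definition. Counting each locus once left 81. Col4a1 and Col4a2, which encode the collagen chains of the basement membrane, are read in opposite directions from start sites 21 bases apart, and had 1037 and 1036 reads in TAC TSA. Nrp1 and Mir1903 differed by less than 1% in every library, as did Kmt2e and 5031425E22Rik. The other shared loci were Nme3 with Eme2 and Mrps34, Bhlhe40 with 0610040F04Rik, Ric8a with Bet1l, Sf3a2 with Plekhj1, Lrrc8a with 1700084E18Rik, Hnrnpul2 with Ttc9c, and Actg1 with 0610009L18Rik. At these loci the signal cannot be assigned to one gene. Brd2 and H2-DMa start 225 bases apart on opposite strands but differed in counts by more than 5%.

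The gene classes behind the strongest promoters were read from 23 gene lists, chosen with earlier results of these data known. Of the 540 measured genes on these lists, 25 (4.63%) were among the 92, against 0.403% of all 22835 genes with a mean of at least 10 reads. The immediate early and stress list gave the most, 8 of 37 genes (21.6%): Jun, Zfp36l1, Dusp1, Ier2, Zfp36, Klf9, Junb and Klf4. Circadian genes gave 3 of 16 (Nr1d1, Bhlhe40 and Dbp), and the cytoskeleton and trafficking list 3 of 29 (Rhob, Actb and Actg1). Chromatin regulators gave Brd2 and Ptma out of 32. The splicing and RNA list gave 2 of 37, and both of these, Neat1 and Malat1, are nuclear non-coding RNAs and not splicing proteins. The remaining 67 of the 92 were on no list.

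Promoters of contractile genes were not among the 92. None of 25 adult sarcomere genes reached a mean of 1000 reads, and the strongest of them, the troponin gene Tnnc1, had rank 569 with 759.25. The list of calcium handling genes and ion channels held 27 genes and peaked at Camk2d with 873.75 reads. All 10 cardiomyocyte markers were well below the threshold: Atp2a2, which encodes the calcium pump of the sarcoplasmic reticulum, had 702.25 reads (rank 935), and Myh6, the adult myosin heavy chain, had 501 (rank 4025). Each of the 10 had reads in every library, the fewest being 171 for the ryanodine receptor gene Ryr2 in TAC Veh. Ribosomal protein genes came nearer, since Rpl7 had 965.25 reads and rank 109, but 0 of 33 passed. None of 31 genes of oxidative phosphorylation and the citrate cycle passed either, Uqcrc2 being highest with 779 reads. Among cell types other than the cardiomyocyte, the endothelial list gave 1 of 20 genes, Egfl7 (1068.75 reads), with a list median of 591.25. The fibroblast and matrix list gave 2 of 28, the pair Col4a1 and Col4a2 that shares its reads, with a list median of 284.25. None of the 8 endothelial and 7 fibroblast cell type markers was among the 92. The leukocyte list peaked at Cd14 with 402.5 reads. These contractile and marker genes, other than the cardiomyocyte markers, were named after their values were seen.

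**Figure D2:**
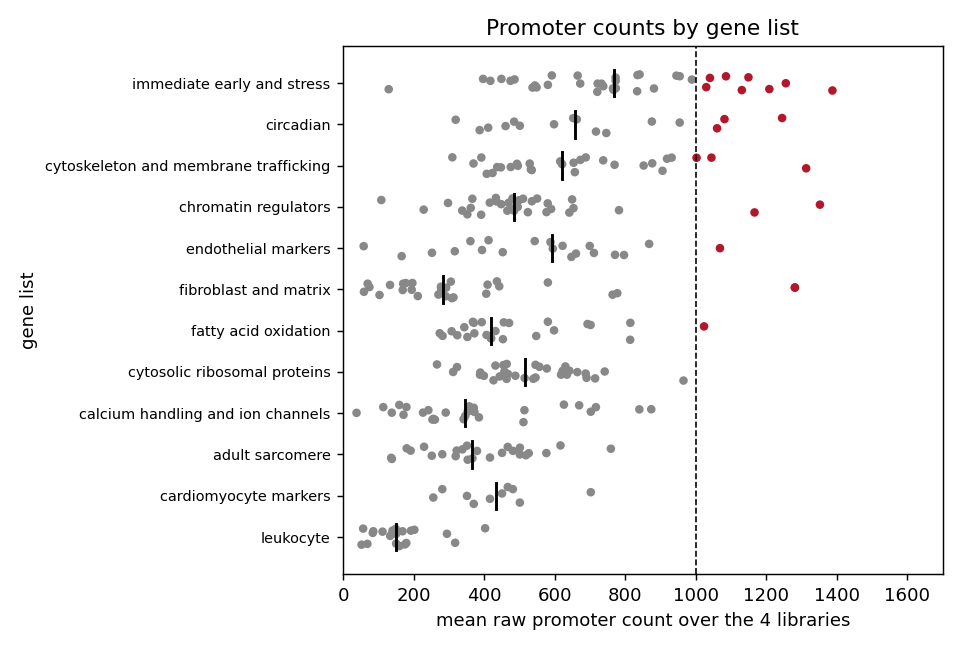
Mean raw promoter count over the 4 libraries (horizontal axis) for the genes of 12 of the 23 lists (vertical axis), 1 point per gene, with the list's median as a bar and the limit of 1000 reads dashed. The immediate early list has 8 genes past the limit and a median of 766.75 reads, whereas the adult sarcomere list has none and a median of 366.5.

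Among the immediate early genes, Dusp1, a phosphatase that switches off MAP kinases, had 922 reads in TAC TSA, 1225 in TAC Veh, 1345 in Sham TSA and 1343 in Sham Veh. Its relative Dusp6, which acts on ERK, had 895, 1376, 1335 and 1275 reads in that order, with TAC Veh highest. Zfp36l1 and Zfp36, which bind AU-rich messenger RNAs and speed their decay, had means of 1255.5 and 1130.75 reads. Tob2, an antiproliferative protein, and Txnip, which inhibits thioredoxin, were of like strength, Txnip with 1024 reads in TAC TSA, 1172 in TAC Veh, 1604 in Sham TSA and 1516 in Sham Veh. Among regulators of transcription, Irf2bpl and its relative Irf2bp2, the bromodomain protein gene Brd2, the PIAS-like coactivator gene Zmiz1 and the zinc finger gene Zbtb16 all stood among the first 30. Mef2d, a MEF2 factor of muscle, was the only 1 of 23 cardiac transcription factors among the 92, with a mean of 1031.75 reads.

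Vessel and cell surface genes were 14 of the 92 by a role assigned after the names were seen. The role was given to the 92 only, so no share over all genes stands beside it. Of the 20 genes on the endothelial list, 1 was among the 92. Nrp1, a co-receptor for vascular endothelial growth factor, had 1030 reads in TAC TSA, 1207 in TAC Veh, 1697 in Sham TSA and 1491 in Sham Veh. Tmem204, a junction protein of endothelium, had 972, 1371, 1447 and 1554 reads in that order. Others were Epas1, a hypoxia-inducible factor, Plxnd1, a semaphorin receptor, Efna1, an ephrin ligand, Hspg2, the basement membrane proteoglycan perlecan, and Cavin1, a coat protein of caveolae. Both sham libraries lay above both TAC libraries at Nrp1 and at Tmem204 in raw reads. After scaling for depth with the trimmed mean of M-values (TMM), Tmem204 had 1202 scaled reads in TAC TSA, 1343 in TAC Veh, 1301 in Sham TSA and 1428 in Sham Veh.

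A gene's other annotated transcripts mostly started in windows of similar strength. Of the 16 genes with several RefSeq transcripts, 10 had more than 1 distinct window, and in 8 of those the strongest window held less than 2 times the reads of the weakest. The exceptions were 0610040F04Rik, with means of 1072 and 46 reads, and Pfkfb2, with 1006.75 and 76. Pfkfb2 encodes a bifunctional enzyme that sets the level of fructose 2,6-bisphosphate, a regulator of glycolysis, and is known for a heart isoform.

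Most of the 92 stayed near the top in each library, though their order among themselves changed. Of the 92, 83 were among the 92 highest of TAC TSA, 78 of TAC Veh, 82 of Sham TSA and 84 of Sham Veh, and 61 were so in all 4. In every library 91 ranked within the first 200, the exception being Lpl at rank 360 in TAC Veh. Since the rule averaged these same libraries, a high rank in each is partly built in. In raw reads, 18 of the 92 had 1000 or more in TAC TSA, 75 in TAC Veh, and all 92 in Sham TSA and in Sham Veh. The mean of raw counts gives the deeper sham libraries more weight, and after TMM scaling the highest library was TAC TSA for 4 promoters, TAC Veh for 17, Sham TSA for 38 and Sham Veh for 33. Over all promoters tested these shares were 31.8% in TAC TSA, 22.4% in TAC Veh, 25.7% in Sham TSA and 20.1% in Sham Veh. Across the 92 genes, Spearman's rho between libraries ran from 0.574 (TAC Veh and Sham Veh) to 0.778 (Sham TSA and Sham Veh), within the narrow range of counts that the threshold leaves.

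The spread over the 4 libraries was small. The SD of log2 scaled counts had a median of 0.0864, against 0.0443 that counting alone gives, and 79 of the 92 (85.9%) lay above their counting error, against 70.1% of all promoters tested. For the 3960 promoters with 500 to under 1000 reads the median SD was 0.0870, against 0.0597 from counting, and 79.9% lay above it. Counting error is the spread to be expected if nothing else differed between libraries. An observed SD over 4 libraries can also fall below it. The highest library exceeded the lowest by a median of 1.14-fold, and after Sfi1 the widest ranges were those of Lpl, 1.49-fold, and Dhrs3, 1.30-fold. Only Sfi1 reached 1.5-fold (1.09% of the 92, against 19.5% of all promoters tested, most of which have far fewer reads). The 4 libraries are also the 4 conditions, so this spread holds both.

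Brd2 had the smallest spread of the 92, an SD of 0.00832 against 0.0395 from counting alone. It binds acetylated histones through its bromodomains, and its promoter had 1339 scaled reads in TAC TSA, 1353 in TAC Veh, 1335 in Sham TSA and 1341 in Sham Veh, a 1.01-fold range. Ptprg, Zc3h4, H2-DMa, 1700084E18Rik, Ehd1, Zbtb16 and Dbp followed, none ranging over more than 1.06-fold. Their SDs too lay below those that counting alone gives. The order of these promoters can therefore be counting noise and shows no greater stability. Dbp and Nr1d1 belong to the clock and cycle daily in heart, and the time of day of tissue collection is not given in the sources used here. At the other end, after Sfi1 and Lpl, came Crip2, Dhrs3, Mir1903, Nrp1, Txnip and Fosl2, with SDs from 0.174 to 0.142. Crip2 encodes a LIM domain protein of heart and vessels and had 1272 scaled reads in TAC TSA, 989 in TAC Veh, 1275 in Sham TSA and 1216 in Sham Veh, TAC Veh standing below the other three. Dhrs3, a retinaldehyde reductase, was lower in both TAC libraries, with 1054 in TAC TSA and 958 in TAC Veh, against 1245 in Sham TSA and 1140 in Sham Veh. Fosl2, an AP-1 subunit, was lowest in TAC TSA, with 889 scaled reads there, 1111 in TAC Veh, 1076 in Sham TSA and 1023 in Sham Veh.

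**Figure D3:**
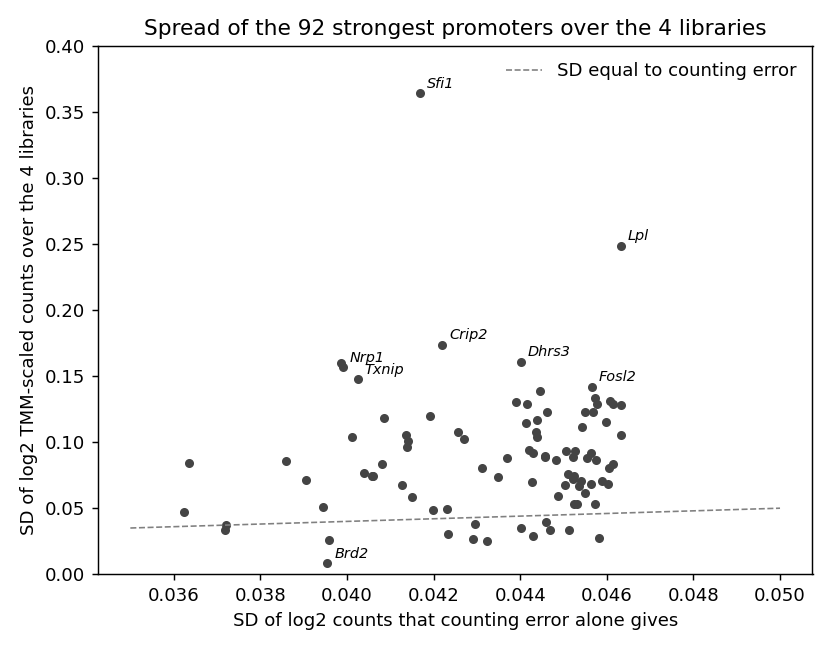
SD of log2 TMM-scaled counts over the 4 libraries (vertical axis) against the SD that counting error alone gives (horizontal axis), 1 point per promoter. 79 of 92 promoters (85.9%) lie above the dashed line of equality, as do 70.1% of all promoters tested, with Sfi1 (0.364) and Lpl (0.249) farthest from it and Brd2 (0.00832) lowest.

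Pressure overload was read from TAC Veh over Sham Veh and, under the drug, from TAC TSA over Sham TSA. The rule averaged raw counts, which gives the deeper sham libraries more weight. A lean of the 92 towards lower ratios in these comparisons can therefore be partly built in. The median log2 ratio of the 92 was -0.06 for TAC Veh over Sham Veh, with 31 above 0 and 61 below, and ratios ran from -0.44 (Lpl) to 0.41 (Sfi1). None of the 92 was apart, meaning at least 1.5-fold with a 95% interval of the ratio that excluded 1, where 1.93% of all promoters tested were apart and higher and 0.582% apart and lower. Of the 92, 11 had an interval wholly above 1 at any size and 30 wholly below, against 5.82% and 7.2% of all tested; intervals narrow as counts grow. For TAC TSA over Sham TSA the median was -0.09, with 20 above 0 and 72 below, and 1 promoter, Sfi1, was apart and higher, against 7.2% of all tested. No promoter of the 92 was apart and lower, against 0.206%. Of the 3960 promoters with 500 to under 1000 reads, 0.0253% were apart and higher and 0.0505% apart and lower in TAC TSA over Sham TSA. For TAC Veh over Sham Veh these shares were 0.0253% and 0.0758%. Intervals lay wholly above 1 for 3 of the 92 and wholly below for 37, against 10.3% and 13.8% of all tested.

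The drug was read from TAC TSA over TAC Veh and from Sham TSA over Sham Veh. In TAC mice the median of the 92 was -0.01, with 43 above 0 and 49 below, from -0.32 (Fosl2) to 0.40 (Sfi1). In sham mice it was 0.00, with 46 above 0 and 46 below, from -0.27 (6820431F20Rik) to 0.28 (0610040F04Rik). None of the 92 was apart in either comparison, against 4.06% higher and 0.342% lower of all tested in TAC mice, and 0.582% in each direction in sham mice. Of the 3960 promoters with 500 to under 1000 reads, 0.202% were apart and higher and 0.0505% apart and lower in TAC mice, and 0% in sham mice. Having none of the 92 apart is thus near what promoters of similar strength gave. Intervals of any size lay wholly above 1 for 13 and below 1 for 24 of the 92 in TAC mice, against 8.13% and 10.4% of all tested, and for 8 and 9 of the 92 in sham mice, against 5.2% and 3.81%. Comparisons that share a library are not independent of each other.

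**Figure D4:**
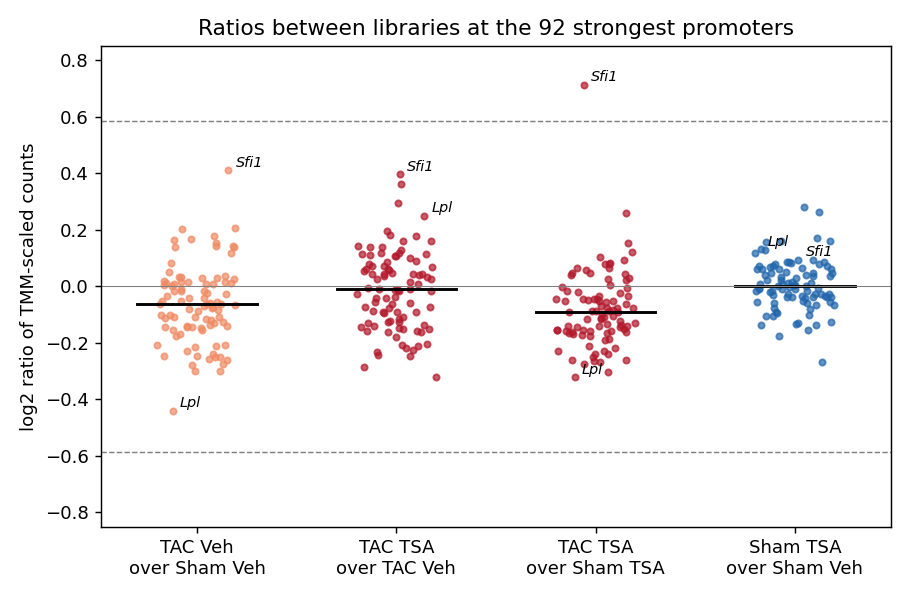
Log2 ratio of TMM-scaled counts (vertical axis) for the 92 promoters in each comparison (horizontal axis), 1 point per promoter, the median as a bar and 1.5-fold as dashed lines. Sfi1 in TAC TSA over Sham TSA (0.71) is the only point past 1.5-fold, and Lpl is the lowest in both comparisons of TAC with sham (-0.44 and -0.32).

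The direction of these medians depended on the scaling. On TMM, which rests on the bulk of promoters, 72 of the 92 were lower in TAC TSA than in Sham TSA. With upper-quartile scaling 38 were lower, and with the receptor promoters as the yardstick 91 were. TAC Veh was lower than Sham Veh at 61 promoters on TMM and at 91 with receptor scaling. TAC TSA was lower than TAC Veh at 49 on TMM, 32 with upper-quartile and 91 with receptor scaling, and Sham TSA was lower than Sham Veh at 46 on TMM and 57 with receptor scaling. With receptor scaling Sfi1 was the 1 promoter of the 92 above 0 in each of the 3 comparisons that involve a TAC library, where 15.7% of all promoters were above 0 for TAC Veh over Sham Veh, 14.1% for TAC TSA over TAC Veh and 10.8% for TAC TSA over Sham TSA. Directions given below for the others hold relative to the bulk of promoters. Receptor scaling moved the median of all promoters by -0.24 for TAC Veh over Sham Veh, -0.38 for TAC TSA over TAC Veh, -0.60 for TAC TSA over Sham TSA and -0.03 for Sham TSA over Sham Veh. The median of the 92 lay within 0.1 of the median of all promoters on the log2 scale in every comparison under each of these scalings. The receptor share of reads was higher in both TAC libraries, as given above, and its part in these ratios was not tested.

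Weak promoters behaved otherwise. Those of 10 to 99 reads had median log2 ratios of 0.14 for TAC Veh over Sham Veh, 0.27 for TAC TSA over TAC Veh, 0.42 for TAC TSA over Sham TSA and -0.01 for Sham TSA over Sham Veh. Of these, 22.1% were apart and higher in TAC TSA over Sham TSA, against 0.0253% of the 3960 promoters with 500 to under 1000 reads. That tier, just below the 92, had medians of -0.04, -0.08, -0.13 and 0.01 in the same order of comparisons, and the 92 had -0.06, -0.01, -0.09 and 0.00.

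**Figure D5:**
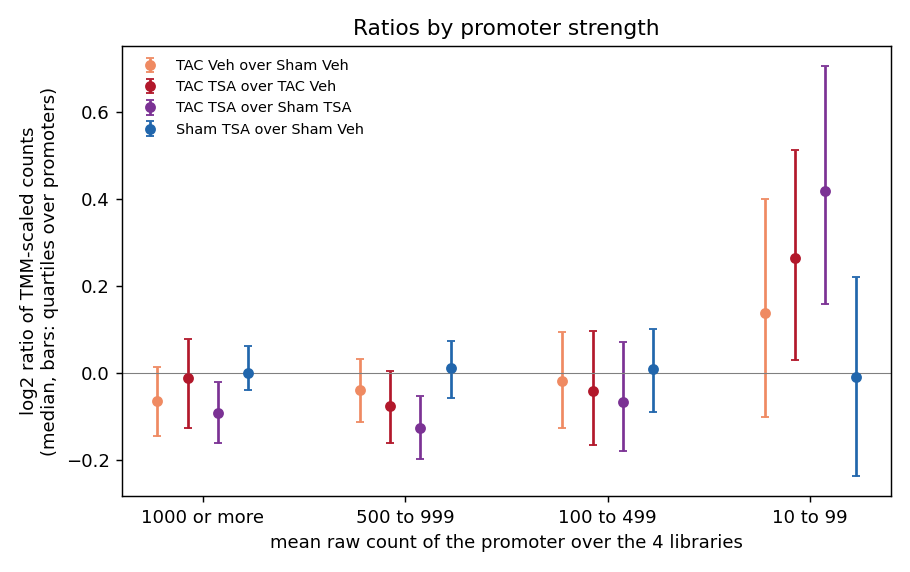
Median log2 ratio of TMM-scaled counts (vertical axis, bars from the lower to the upper quartile over promoters) by mean raw count (horizontal axis, the 92 strongest at the left), 1 colour per comparison. Medians of the 92 lie between -0.09 and 0.00, and those of the weakest tier between -0.01 and 0.42.

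Sfi1, which encodes a centrin-binding protein of the centrosome, stood apart from the other strong promoters. It had 1358 reads in TAC TSA, 1302 in TAC Veh, 1139 in Sham TSA and 1045 in Sham Veh, and so was the only one of the 92 whose raw count was highest in the shallowest library. Its rank was 1 in TAC TSA, 16 in TAC Veh, 85 in Sham TSA and 131 in Sham Veh. The log2 ratio was 0.71 (95% interval 0.60 to 0.83) for TAC TSA over Sham TSA, or 1.64-fold, and 0.41 (0.29 to 0.53) for TAC Veh over Sham Veh. It was 0.40 (0.29 to 0.51) in TAC TSA over TAC Veh and 0.09 (-0.03 to 0.22) in Sham TSA over Sham Veh. With receptor scaling these became 0.12, 0.16, 0.01 and 0.06. Sfi1 has near-identical copies of part of its sequence in the mouse genome, and the handling of reads that map to several places is not given in the sources used here, so its counts are uncertain. The same holds for the pseudogenes Pisd-ps2 and 6820431F20Rik. Mir101c, a microRNA gene with a mean of 898.25 reads, under the threshold and named after its values were seen, had the same order of libraries, with 1263 reads in TAC TSA, 987 in TAC Veh, 709 in Sham TSA and 634 in Sham Veh.

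Lpl, which encodes the lipase that frees fatty acids from circulating triglyceride for the heart to burn, was the other exception. It had 770 reads in TAC TSA, 817 in TAC Veh, 1324 in Sham TSA and 1183 in Sham Veh, both TAC libraries lying below both sham libraries. After scaling the values were 952 in TAC TSA, 800 in TAC Veh, 1190 in Sham TSA and 1087 in Sham Veh. The log2 ratio was -0.44 (95% interval -0.57 to -0.31) for TAC Veh over Sham Veh and -0.32 (-0.45 to -0.19) for TAC TSA over Sham TSA, below 0 under all 6 scalings run. It was 0.25 (0.11 to 0.39) in TAC TSA over TAC Veh and 0.13 (0.02 to 0.25) in Sham TSA over Sham Veh. With receptor scaling the TAC TSA over TAC Veh ratio became -0.13. Summed over the 10 cardiomyocyte markers, scaled counts were 4759 in TAC TSA, 3024 in TAC Veh, 4886 in Sham TSA and 4346 in Sham Veh, so these genes too were lowest in TAC Veh; none was at 0, and their part in the Lpl ratio was not tested.

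An additive model of surgery and drug over all 4 libraries (edgeR quasi-likelihood test, Benjamini-Hochberg adjustment over 22835 genes) called 2 of the 92 for surgery. Sfi1 was higher with TAC by 0.56 on the log2 scale (adjusted p = 3.01e-08), and Lpl was lower, with a coefficient of -0.38 (adjusted p = 0.0224). Lpl passed the rule through its sham counts, 1324 in Sham TSA and 1183 in Sham Veh, against 770 in TAC TSA and 817 in TAC Veh. The rule and this call used the same counts, so the call is no independent support. The Lpl call was lost with upper-quartile scaling (adjusted p = 0.122) and with a filter at a mean of 100 reads (adjusted p = 0.449). Over all genes 3 were called higher (0.0131%) and 5 lower (0.0219%). The drug called 0 of the 92, against 0.206% higher and 0.00876% lower of all genes; at an unadjusted p under 0.05, 5 of the 92 passed (5.43%, against 4.27% of all genes). For surgery 13 passed unadjusted (14.1%, against 9.32%). Among them Sfi1 had a coefficient above 0, and Nrp1, Txnip, Dhrs3 and Efna1 had coefficients below 0. The rule's weight on the deeper sham libraries can enter this share as well. Like Lpl, Dhrs3 passed the rule through its sham counts, 1385 in Sham TSA and 1241 in Sham Veh. It had 853 in TAC TSA and 978 in TAC Veh. Efna1 did so too, with 1284 in Sham TSA and 1262 in Sham Veh, against 867 in TAC TSA and 978 in TAC Veh. These p-values rest on the same counts as the rule. The model has 1 residual degree of freedom, which is the interaction of surgery and drug. Its p-values rest on that interaction at each gene, together with estimates of spread drawn from the other genes. DESeq2 called neither Sfi1 nor Lpl for surgery, with adjusted p = 0.9998 for both, and limma-voom called both.

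By role, assigned after the names were seen, 16 immediate early and stress genes had median log2 ratios of -0.02 for TAC Veh over Sham Veh, -0.10 for TAC TSA over TAC Veh, -0.14 for TAC TSA over Sham TSA and 0.01 for Sham TSA over Sham Veh. The medians hid different genes. Klf4, a Krüppel-like transcription factor, had a ratio of 0.21 (0.09 to 0.33) and Dusp6 of 0.20 (0.09 to 0.31) in TAC Veh over Sham Veh, whereas Txnip had -0.28 (-0.39 to -0.17) and Jun -0.14 (-0.25 to -0.04). In TAC TSA over TAC Veh, Klf4 had -0.21 (-0.34 to -0.08), Dusp6 -0.28 (-0.41 to -0.16) and Txnip 0.14 (0.02 to 0.26). Because TAC Veh enters both ratios, a high or low count there moves them in opposite directions. The nuclear RNAs Malat1 and Neat1 had -0.26 (-0.37 to -0.14) and -0.18 (-0.28 to -0.08) in TAC Veh over Sham Veh. The basement membrane pair Col4a1 and Col4a2 had 0.14 each there. The widest of these differences, that of Dusp6 in TAC TSA over TAC Veh, was 1.22-fold.

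The clock genes past the threshold were compared between the sham libraries after their values were seen. Bhlhe40, a repressor that feeds into the clock, had 1333 reads in Sham TSA and 1086 in Sham Veh, a log2 ratio of 0.26 (0.15 to 0.38), and Nr1d1 had 1511 and 1314, a ratio of 0.17 (0.06 to 0.28). Bhlhe40 shares its reads with 0610040F04Rik, whose ratio of 0.28 was given above. Both ratios read the same signal, which cannot be assigned to one gene. Dbp, an output gene of the clock, had 1207 and 1118, and its ratio of 0.08 had an interval from -0.04 to 0.20. In TAC mice the TSA ratio of Bhlhe40 was 0.06 (-0.07 to 0.19) and that of Nr1d1 0.07 (-0.05 to 0.19). The difference between sham and TAC mice was not tested. The whole list of 16 circadian genes had a median log2 ratio of 0.02 in Sham TSA over Sham Veh, and Per1, Per2 and Arntl had fewer raw reads in Sham TSA (1036, 797 and 336) than in Sham Veh (1093, 850 and 376).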

How the data were processed

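Libraries of acetylated histone H3 chromatin from 4 groups of left ventricles were analysed. The deposited table gives, for each RefSeq promoter, the count of reads, a whole number with no normalisation. Per the submitters' processing notes, the tools named are BWA 0.5.9 and MACS 1.4.1, with mm9 as build. The sources used here do not give the counting tool, the promoter window or the handling of duplicates and input, and whether duplicates were kept would change the highest counts most. Per the labels' protocols, libraries had 15 PCR cycles. Gene names of GRCm38.p6 were found for 31115 of 31594 RefSeq IDs (98.5%), and the 479 others, with 1.11% of counts, were left out. Total counts were 6842296 in TAC TSA, 8873302 in TAC Veh, 9905553 in Sham TSA and 9612616 in Sham Veh. No pair of libraries was identical. The deposited lists of changed regions were not used.

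The ID with the highest mean count stood for each gene, and 22835 genes with a mean of at least 10 were tested. Scaling was TMM (edgeR 4.0.16, R 4.3.3). Ratios of 2 libraries carry exact conditional (Clopper-Pearson) 95% intervals, which treat PCR reads as independent molecules. With 1 library per group the additive edgeR model was the only test, adjusted by Benjamini-Hochberg at a threshold of 0.05, with DESeq2 1.42.0 and limma-voom 3.58.1 as alternatives. Alternatives also covered scaling, fold and filter. The scripts were tested on simulated data. The rest was done in Python 3.11.15 (pandas 2.3.3, numpy 2.4.6, scipy 1.17.1, figures with matplotlib 3.10.9). Promoter sequences are RefSeq's (GRCm38.p6).

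The promoters and gene lists were chosen with earlier results of these data known. Genes named are the 30 strongest, the 5 on each side of the threshold, those apart or called (up to 8 per direction), the 8 most and 8 least variable, up to 4 per gene list, those with shared counts and the cardiomyocyte markers. Others were named after their values were seen. One gene just outside the threshold is not reported here.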

Additional observations from a re-analysis of the deposited data

Results flagged for a closer look

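On TMM the same contrast went in opposite directions in 2 settings at 4 promoters. Each setting had a counting interval that excluded no difference. The differences themselves were not tested, since each group had 1 library. Ppp1r18 encodes a phosphatase 1 subunit. It had a log2 ratio of -0.24 in TAC TSA over Sham TSA but 0.14 in TAC Veh over Sham Veh. The same 4 counts gave -0.22 in TAC TSA over TAC Veh and 0.16 in Sham TSA over Sham Veh. That is the same difference read the other way and not a second result, and Ppp1r18 is counted under both contrasts below. Trib1, a pseudokinase gene, had -0.17 in TAC TSA over Sham TSA but 0.17 in TAC Veh over Sham Veh. Amotl2, an angiomotin family gene, had 0.15 in TAC TSA over Sham TSA but -0.24 in TAC Veh over Sham Veh. Cavin1 had 0.16 in TAC TSA over TAC Veh and -0.18 in Sham TSA over Sham Veh. With receptor scaling, Sfi1 was the 1 promoter of the 92 above 0 in each comparison that involves a TAC library. The surgery ratios of Ppp1r18, Trib1 and Amotl2 then no longer went in opposite directions. Nor did the drug ratios of Cavin1, whereas those of Ppp1r18 still did. Of the 92 promoters, 3 (3.26%) were of this kind for surgery and 2 (2.17%) for the drug, against 1.01% and 1.11% of all promoters tested, whose intervals are wider.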

How the results depend on the processing

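The threshold set how many promoters counted as strongest: 18 had 1000 reads or more in each library, and the mean of scaled counts without 1 library in turn gave 75 to 92 (chosen after seeing the data). With every RefSeq ID in the denominator their share was 1.20% in TAC TSA, 1.17% in TAC Veh, 1.20% in Sham TSA and 1.21% in Sham Veh. The median log2 ratio of TAC Veh over Sham Veh was -0.0411 with total counts, -0.0331 with upper-quartile scaling, -0.308 with receptor scaling and 0.00871 after a loess fit on mean count. For TAC TSA over TAC Veh it was 0.0267 with total counts, 0.0680 with upper-quartile, -0.396 with receptor and 0.0186 with loess. For TAC TSA over Sham TSA it was -0.0214, 0.0364, -0.689 and 0.0137 in that order of scalings. For Sham TSA over Sham Veh it was -0.0177 with upper-quartile and -0.0313 with receptor scaling, and it was also below 0 with DESeq2 size factors (-0.00096), total counts (-0.0093) and loess (-0.0037), against 0.0011 on TMM, so it has no fixed sign. Receptor scaling gave 1 promoter apart and lower (Lpl) in TAC Veh over Sham Veh (3.89% of all tested), 10 lower in TAC TSA over TAC Veh (14.4% of all), and 73 lower (52.6% of all) and 0 higher (0.447% of all) in TAC TSA over Sham TSA. A laxer limit of 0.32 on the log2 scale gave 1 higher (Sfi1, 3.69% of all tested) and 1 lower (Lpl, 2.81% of all) in TAC Veh over Sham Veh, 2 higher (Sfi1 and Crip2, 6.91% of all) in TAC TSA over TAC Veh, and 1 lower (Lpl, 3.88% of all) in TAC TSA over Sham TSA, where a limit of 2-fold gave 0 higher. Leaving out Sfi1 (added later) gave 0 higher there by construction, since Sfi1 was the only promoter of the 92 apart and higher. In the additive model DESeq2 called 0 higher and 0 lower for surgery (Sfi1 0.57, Lpl -0.38). Upper-quartile scaling called 0 lower for surgery (Lpl -0.30, adjusted p = 0.122, edgeR) and 1 higher for the drug (Sfi1 0.28, adjusted p = 0.0306), and a filter at a mean of 100 reads called 0 lower (Lpl -0.33, adjusted p = 0.449). Where not set by the scaling itself, the cause was not tested. The other 96 values moved by less than their spread or less than 1.5 times. They include numbers of promoters and the overlaps with the 92 highest of each library, but none of the shares. A check on base composition was not run, as too few promoters had a sequence. No paired analysis was possible because each group has 1 library. Depth limits single ratios to about the widths of their intervals, and with 1 library per group no ratio separates a condition from its library.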
